A study of Homo sapiens with 9 samples.

Results

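The IFIT and IFITM genes encode 2 families of antiviral proteins that interferon induces. Of the 67140 genes in the count table, 7 were followed here by symbol: IFIT1, IFIT2, IFIT3 and IFIT5, and IFITM1, IFITM2 and IFITM3. Their RNA was measured by RNA sequencing of 9 libraries of the human cell line DMS273, derived from small cell lung cancer. The ATG7 KO cells carried a CRISPRv2 knockout of ATG7, the E1-like enzyme of the autophagy conjugation systems. The ATG7/SQSTM1 KO cells carried knockouts of ATG7 and of SQSTM1, which encodes the autophagy receptor p62, and the control cells carried a scrambled guide and are labelled WT. Each genotype had 3 libraries from cells kept in RPMI 1640 medium with fetal bovine serum, and no interferon, virus or drug is named in the labels. The labels do not say whether a genotype is 1 clone or a pool, or whether its libraries came from separate cultures, so the p-values measure the spread between these libraries, which may be technical.

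Type I and type III interferons bind receptors that signal through JAK kinases to the transcription factor ISGF3. This factor binds the interferon-stimulated response element (ISRE) in the promoters of its target genes. IFIT proteins are cytosolic, are built of tetratricopeptide repeats and bind viral RNA or translation factors. IFITM proteins are small membrane proteins that restrict the fusion of enveloped viruses with the cell.

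The promoters of the members are shown because the ISRE is the sequence through which interferon signalling is known to reach both families. RefSeq promoter windows (GRCh38.p14, 250 bases before to 50 after a start site) were found for IFIT1, IFIT3, IFIT5, IFITM1 and IFITM3. IFIT2 and IFITM2 were not matched. Printed 5′ to 3′ on the strand of the gene are 172 bases that end shortly after the start site, with each match to the core of the ISRE in capitals. The core was searched as GAAA, any 2 bases and GAAA, or, on the other strand, TTTC, any 2 bases and TTTC. IFIT3 has 2 listed start sites, and IFIT1B, the family gene that lies between IFIT3 and IFIT1, is printed for comparison.
IFIT1, chr10:89392463-89392634, plus strand: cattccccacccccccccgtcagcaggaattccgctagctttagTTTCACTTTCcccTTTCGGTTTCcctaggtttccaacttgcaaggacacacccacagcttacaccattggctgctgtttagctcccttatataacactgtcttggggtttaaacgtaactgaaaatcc
IFIT3, upstream start site, chr10:89327837-89328008, plus strand: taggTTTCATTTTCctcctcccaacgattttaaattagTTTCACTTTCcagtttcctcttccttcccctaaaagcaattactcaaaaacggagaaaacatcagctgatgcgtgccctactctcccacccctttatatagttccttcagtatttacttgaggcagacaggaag
IFIT3, downstream start site, chr10:89332369-89332540, plus strand: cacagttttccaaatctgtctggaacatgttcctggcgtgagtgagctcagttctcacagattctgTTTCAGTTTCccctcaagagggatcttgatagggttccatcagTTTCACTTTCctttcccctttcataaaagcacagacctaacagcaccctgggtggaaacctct
IFIT5, chr10:89414408-89414579, plus strand: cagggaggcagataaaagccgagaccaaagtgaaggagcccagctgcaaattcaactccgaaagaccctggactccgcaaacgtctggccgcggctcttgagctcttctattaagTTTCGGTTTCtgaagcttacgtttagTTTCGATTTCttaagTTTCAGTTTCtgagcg
IFITM1, chr11:313880-314051, plus strand: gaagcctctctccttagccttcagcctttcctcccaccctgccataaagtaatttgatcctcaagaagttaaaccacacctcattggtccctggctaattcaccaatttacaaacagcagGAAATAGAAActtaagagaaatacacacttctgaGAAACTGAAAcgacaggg
IFITM3, chr11:320849-321020, minus strand: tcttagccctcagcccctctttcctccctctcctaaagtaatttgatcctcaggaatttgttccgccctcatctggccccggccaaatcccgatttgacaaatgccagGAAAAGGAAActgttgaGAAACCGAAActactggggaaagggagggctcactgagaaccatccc
IFIT1B, chr10:89377896-89378067, plus strand: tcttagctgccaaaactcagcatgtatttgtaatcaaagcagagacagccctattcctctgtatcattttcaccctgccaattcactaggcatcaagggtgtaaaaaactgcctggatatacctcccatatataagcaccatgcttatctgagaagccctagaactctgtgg

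IFIT5 held 3 matches, and the other 5 member windows held 2 each. Among all 35116 promoter windows of the same length, 3.57% held at least 1 match and 0.259% held at least 2. In the direction of the gene, all matches in the IFIT windows were of the TTTC form and all matches in the 2 IFITM windows of the GAAA form. The matches lay 116 to 94 bases before the start site in IFIT1. In IFIT5 and IFITM1 the match nearest the start spanned it. The interferon-gamma motif GAS (TTCNNNGAA, the same on both strands, found in 7.66% of promoter windows) occurred once in the IFITM1 window. The IFIT1B window held no match to the ISRE letters. A match describes the letters and is not a measurement of binding.

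The 4 IFIT genes lie in 137.3 kb of chromosome 10, all on the plus strand (GRCh38, GENCODE release 29). IFIT2 (ENSG00000119922) spans chr10:89283694-89309276, IFIT3 (ENSG00000119917) chr10:89327894-89340971, IFIT1 (ENSG00000185745) chr10:89392546-89406486 and IFIT5 (ENSG00000152778) chr10:89414586-89421001. The 3 IFITM genes lie in 19.9 kb of chromosome 11. IFITM2 (ENSG00000185201, plus strand) spans chr11:307631-315272, IFITM1 (ENSG00000185885, plus strand) chr11:313506-315272 and IFITM3 (ENSG00000142089, minus strand) chr11:319669-327537. IFITM1 lies wholly inside the annotated IFITM2 span, and the pair shares 351 exonic bases on 1 strand, through the transcript IFITM2-201. That is 32.5% of the exonic bases of IFITM1 and 22.7% of those of IFITM2. Of the 50-base windows in their exons, 32.0% in IFITM1, 34.1% in IFITM2 and 17.4% in IFITM3 also occur in another gene, and no source used here tells how the authors' counting divided such reads. The split of counts among the 3 IFITM genes is therefore uncertain, and their sum is given beside them. Of the IFIT windows, 1.02% in IFIT1, 7.50% in IFIT2, 2.48% in IFIT3 and none in IFIT5 occur in another gene. IFIT2 also shares 356 exonic bases on the same strand with the noncoding gene AL353751.1, which had 40 counts over all libraries.

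The libraries held 28675576 to 34222098 counts. As a check of the labels, ATG7 stood at 11.7 ± 1.52 CPM (counts scaled to library size) in ATG7 KO, 10.6 ± 0.550 in ATG7/SQSTM1 KO and 27.1 ± 0.901 in control (SD, n = 3 each). SQSTM1 stood at 390.7 ± 4.47, 51.9 ± 3.29 and 376.3 ± 3.53 CPM in the same order (SD, n = 3 each). Both targeted genes were lower where the labels name their knockout, and transcripts remained, which says nothing about the protein. The neuroendocrine markers, defining genes of small cell lung cancer, were detected in every group and summed to 144 to 147 CPM in ATG7 KO, 416 to 434 in ATG7/SQSTM1 KO and 395 to 405 in control. All 7 were lower in ATG7 KO than in control. Fibroblast marker RNA, mostly LUM and COL1A1, summed to 333 to 361 CPM in ATG7 KO, 177 to 185 in ATG7/SQSTM1 KO and 104 to 116 in control. Of its 6 genes 5 were tested, of which 3 rose in ATG7 KO against control and 4 rose in ATG7/SQSTM1 KO against control, and none of the 6 was at 0. Blood cell markers summed to 8.42 to 8.82, 2.47 to 3.50 and 2.44 to 3.23 CPM in that order, with CD3E and LYZ at 0 in all libraries, and 3 of 6 were tested and rose in ATG7 KO. Endothelial markers summed to 2.15 to 3.12, 0.510 to 1.05 and 1.22 to 1.48 CPM, and 2 of 4 were tested and rose in ATG7 KO. In ATG7/SQSTM1 KO against control, 3 neuroendocrine markers rose and 2 fell, 2 blood cell markers rose and 1 fell, and 1 endothelial marker fell. The sums did not all follow the same order. Those of blood cells overlapped between ATG7/SQSTM1 KO and control, and those of endothelium were lowest in ATG7/SQSTM1 KO. The part of these markers in the results below was not tested. Beside the marker calls, 28.4% of all tested genes rose and 28.3% fell in ATG7 KO against control. In ATG7/SQSTM1 KO against control 19.0% rose and 19.6% fell.

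All 7 members passed the filter on low counts, were highest in ATG7 KO, intermediate in ATG7/SQSTM1 KO and lowest in control. No member's libraries overlapped between any pair of genotypes. Such separation was common in the table: the ATG7 KO libraries lay wholly above control for 30.8% of tested genes and wholly below for 31.6%, the ATG7/SQSTM1 KO libraries above control for 23.9% and below for 24.9%, and the ATG7/SQSTM1 KO libraries above ATG7 KO for 33.5% and below for 32.4%. The smallest count of a member in a library was 113 (IFITM2 in a control library) and the largest 13954 (IFITM3 in an ATG7 KO library). In bulk RNA, fewer cells expressing a gene and less RNA per cell cannot be told apart.

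**Figure D1:**
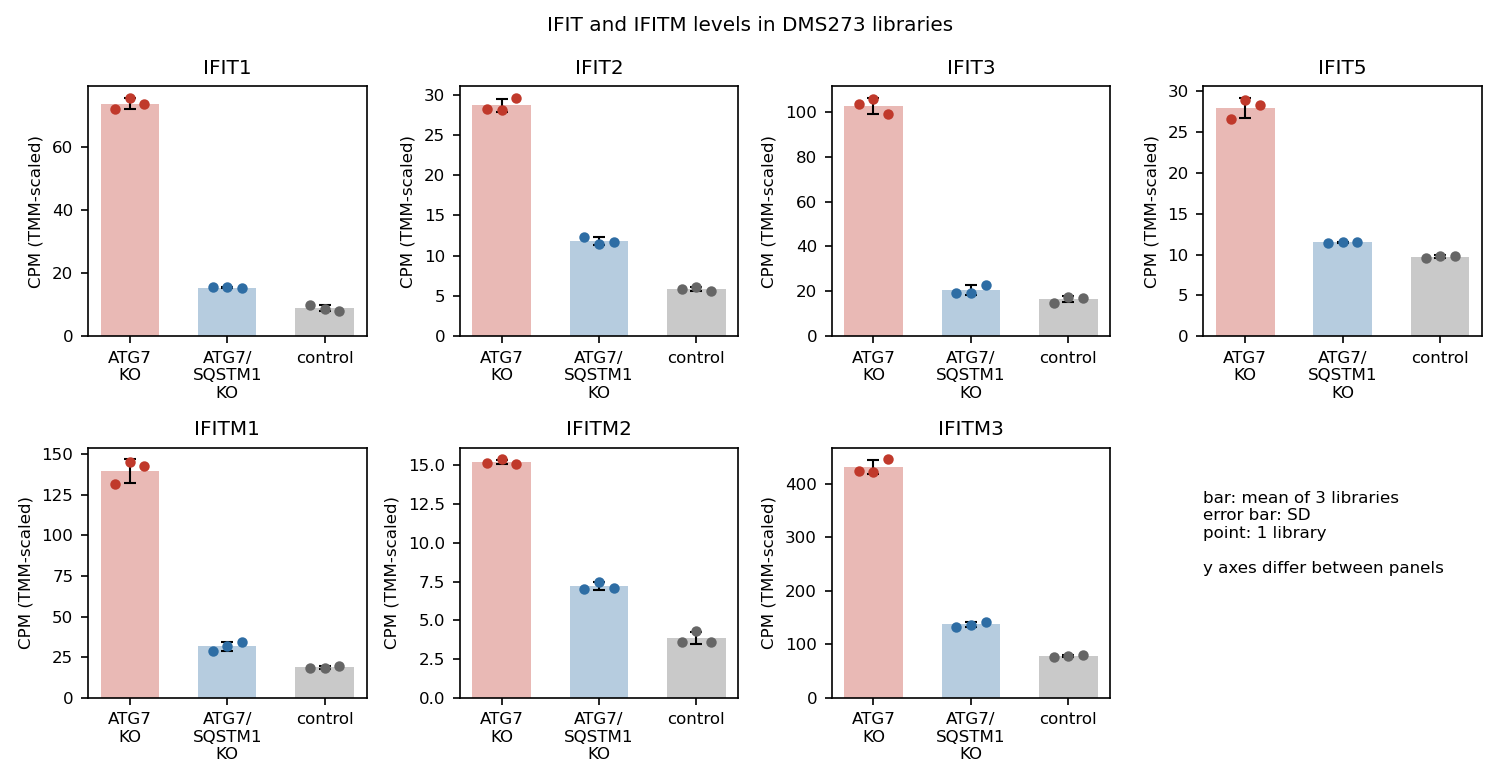
Level of each of the 7 genes in CPM after TMM scaling, by genotype, with bars for the mean of 3 libraries, error bars for the SD and points for single libraries; each panel has its own axis from 0. In every panel the 3 ATG7 KO libraries lie above the 3 ATG7/SQSTM1 KO libraries, which lie above the 3 control libraries.

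The first comparison set ATG7 KO against control, where loss of ATG7 and a difference between cell lines cannot be told apart. All 7 genes rose in ATG7 KO against control, by 2.88-fold (IFIT5) to 8.31-fold (IFIT1). Of 18847 tested genes, 56.7% changed in this comparison at an adjusted p under 0.05 with 28.4% higher and 28.3% lower, so a call alone sets the members little apart from the rest, and the sizes are the more informative values. The median log2 change of the 7 was 2.46, beside -0.02 over all tested genes. The log2 changes and p-values are from edgeR's quasi-likelihood test with Benjamini-Hochberg adjustment over all tested genes.

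Among the RNA-binding IFIT proteins, IFIT1 recognises viral RNA whose cap lacks a methyl mark and blocks its translation. Its gene had 72.1, 75.5 and 73.4 CPM in ATG7 KO, against 9.98, 8.44 and 8.10 CPM in control. The lowest ATG7 KO library was far above the highest control library, and the log2 change was 3.06 (SE 0.060, adjusted p = 7.36e-20). Only 56 of the 18847 tested genes had a larger log2 change in this comparison.

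IFIT3 binds IFIT1 and stabilises it in human cells. It had 103.3, 105.9 and 98.9 CPM in ATG7 KO, against 14.98, 17.5 and 17.0 CPM in control. The groups lay wide apart, with a log2 change of 2.64 (SE 0.070, adjusted p = 5.42e-13). IFIT2, which binds AU-rich RNA and has been linked to apoptosis, had 28.3, 28.1 and 29.6 CPM in ATG7 KO, against 5.83, 6.13 and 5.64 CPM in control. Its libraries were tight within each group, and the log2 change was 2.29 (SE 0.071, adjusted p = 9.41e-17).

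IFIT5, a member that acts as a monomer and binds RNA with a 5′ triphosphate, showed the smallest rise of the 7. It had 26.6, 28.98 and 28.3 CPM in ATG7 KO, against 9.52, 9.82 and 9.83 CPM in control. The groups did not overlap, the log2 change was 1.53 (SE 0.065, adjusted p = 1.85e-14), and 414 tested genes had a larger one.

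IFITM3 sits mainly in late endosomes and lysosomes, where it blocks the fusion of influenza and other enveloped viruses. It was the most abundant member, with 423, 422 and 445 CPM in ATG7 KO, against 76.7, 77.8 and 80.4 CPM in control. Spread within a group was small beside that gap, and the log2 change was 2.46 (SE 0.033, adjusted p = 2.38e-22). IFITM1, found largely at the plasma membrane, had 131.5, 145.0 and 142.6 CPM in ATG7 KO, against 18.0, 18.5 and 19.4 CPM in control. Its log2 change, 2.91 (SE 0.059, adjusted p = 4.42e-16), was the largest of the IFITM genes.

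IFITM2, an endosomal protein close in sequence to IFITM3, was the least abundant by count. It had 15.2, 15.4 and 15.1 CPM in ATG7 KO, against 3.60, 4.31 and 3.62 CPM in control. The log2 change was 1.99 (SE 0.095, adjusted p = 1.26e-13), with no overlap of the groups. Summed, so that the division among them of the shared reads that were counted does not enter, the 3 IFITM genes had 585 ± 16.6 CPM in ATG7 KO and 101 ± 2.58 CPM in control (SD, n = 3 each), a log2 change of 2.54. Any shared reads that the counting left out would be missing from this sum too.

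The second comparison set the double knockout against control, where loss of ATG7 and SQSTM1 and a difference between cell lines cannot be told apart. All 7 genes were still higher in ATG7/SQSTM1 KO than in control, by 1.19-fold (IFIT5) to 2.02-fold (IFIT2). Of all tested genes, 38.6% changed here, with 19.0% higher and 19.6% lower. The median log2 change of the 7 was 0.80, beside -0.01 over all tested genes. This comparison uses the same control libraries as the one above.

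IFIT2 had 12.3, 11.4 and 11.7 CPM in ATG7/SQSTM1 KO, against the control values of 5.83, 6.13 and 5.64 CPM. Every ATG7/SQSTM1 KO library was well above every control library, and the log2 change, 1.01 (SE 0.074, adjusted p = 6.79e-10), was the largest of the 7 in this comparison. IFIT1 had 15.5, 15.6 and 15.1 CPM, against 9.98, 8.44 and 8.10 CPM in control, a log2 change of 0.80 (SE 0.066, adjusted p = 4.81e-09).

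The remaining IFIT genes differed from control by less. IFIT3 had 19.3, 19.1 and 23.0 CPM in ATG7/SQSTM1 KO, against 14.98, 17.5 and 17.0 CPM in control. The highest control library lay just under the lowest ATG7/SQSTM1 KO library, and the log2 change was 0.31 (SE 0.077, adjusted p = 0.00548). IFIT5 had 11.5, 11.6 and 11.6 CPM, against 9.52, 9.82 and 9.83 CPM in control, with a log2 change of 0.25 (SE 0.068, adjusted p = 0.00639). As many as 3819 tested genes had a larger log2 change than IFIT5, and 3027 a larger one than IFIT3, so these rises were not unusual in size.

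The 3 IFITM genes stood close to each other in this comparison. IFITM3 had 133, 137 and 142 CPM in ATG7/SQSTM1 KO, against 76.7, 77.8 and 80.4 CPM in control (log2 change 0.81, SE 0.033, adjusted p = 3.66e-14). IFITM1 had 28.8, 31.8 and 34.3 CPM, against 18.0, 18.5 and 19.4 CPM in control (log2 change 0.76, SE 0.062, adjusted p = 7.6e-08). IFITM2 had 6.996, 7.48 and 7.07 CPM, against 3.60, 4.31 and 3.62 CPM in control (log2 change 0.90, SE 0.098, adjusted p = 2.18e-07). None of the 3 overlapped between the genotypes, and their sum had a log2 change of 0.80.

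The third comparison set the double knockout against the single one. The labels do not say that the double knockout was made from the ATG7 KO cells, so loss of SQSTM1 and a difference between cell lines cannot be told apart. All 7 genes fell in ATG7/SQSTM1 KO against ATG7 KO, by 2.12-fold (IFITM2) to 5.02-fold (IFIT3). Of all tested genes 60.5% changed in this comparison, with 29.9% lower and 30.5% higher. The median log2 change of the 7 was -1.65, beside 0.02 over all tested genes. The ATG7 KO libraries also enter the first comparison, so the 2 comparisons are not independent.

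IFIT3 averaged 20.5 ± 2.21 CPM in ATG7/SQSTM1 KO and 102.7 ± 3.56 CPM in ATG7 KO (SD, n = 3 each), a log2 change of -2.33 (SE 0.068, edgeR adjusted p = 1.5e-12). IFIT1 averaged 15.4 ± 0.259 CPM in ATG7/SQSTM1 KO and 73.7 ± 1.70 CPM in ATG7 KO, a log2 change of -2.26 (SE 0.056). IFITM1 averaged 31.6 ± 2.76 CPM in ATG7/SQSTM1 KO and 139.7 ± 7.18 CPM in ATG7 KO, a log2 change of -2.14 (SE 0.056). These were the 3 largest falls among the members, and 132 to 162 of all tested genes fell further than each of them.

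IFITM3 averaged 137 ± 4.76 CPM in ATG7/SQSTM1 KO and 430.2 ± 13.0 CPM in ATG7 KO, a log2 change of -1.65 (SE 0.032). The smaller falls were those of IFIT5 (log2 change -1.28, SE 0.064), IFIT2 (-1.28, SE 0.066) and IFITM2 (-1.08, SE 0.089). The largest adjusted p of the 7 was 8.35e-10, for IFITM2, and the summed IFITM genes had a log2 change of -1.73.

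**Figure D2:**
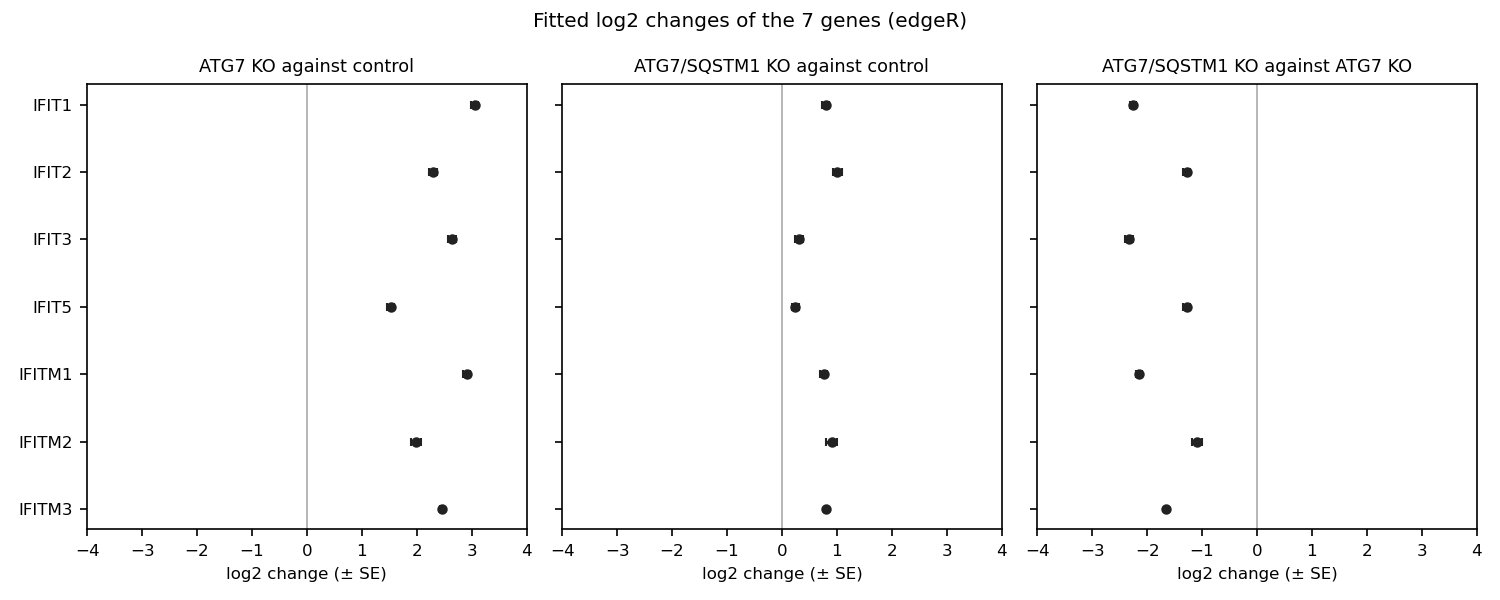
Fitted log2 change of each gene in the 3 comparisons (horizontal axis), with points for the estimate and bars for its SE. All 7 points lie right of 0 in both comparisons with control and left of 0 for ATG7/SQSTM1 KO against ATG7 KO; IFIT5 has the smallest change against control in both.

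The fitted changes of the members differed in size. Ratios between members, taken from the same counts, describe these differences for selected pairs and are not separate evidence. On counts within a library, which no library scaling affects, the log2 ratio of IFIT1 to IFIT5 averaged 1.40 ± 0.034 in ATG7 KO, 0.42 ± 0.028 in ATG7/SQSTM1 KO and -0.14 ± 0.185 in control (SD, n = 3 each). The ratio was 1.54 higher in ATG7 KO and 0.56 higher in ATG7/SQSTM1 KO than in control, with no overlap of libraries. The log2 ratio of IFIT2 to IFIT3 was -1.84 ± 0.090 in ATG7 KO, -0.79 ± 0.171 in ATG7/SQSTM1 KO and -1.49 ± 0.119 in control (SD, n = 3 each). It was thus 0.35 lower in ATG7 KO than in control, and 0.70 higher in ATG7/SQSTM1 KO than in control.

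Within the IFITM family, the ATG7 KO libraries had the highest ratios of IFITM1 to IFITM3 and the lowest of IFITM2 to IFITM3. The log2 ratio of IFITM1 to IFITM3 was -1.62 ± 0.074 in ATG7 KO, -2.12 ± 0.078 in ATG7/SQSTM1 KO and -2.07 ± 0.021 in control (SD, n = 3 each). That of IFITM2 to IFITM3 was -4.82 ± 0.053, -4.25 ± 0.070 and -4.35 ± 0.158 in the same order. Both ratios overlapped between ATG7/SQSTM1 KO and control (exact two-sided permutation p = 0.4 for each). For the other 10 of the 12 tests the libraries did not overlap, with an exact two-sided permutation p = 0.1, the smallest that 3 libraries against 3 can give, and 0.12 after adjustment over the 12, so none passes 0.05. Because reads of the IFITM genes can be divided differently by a counting program, the IFITM ratios are less certain than the IFIT ratios.

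**Figure D3:**
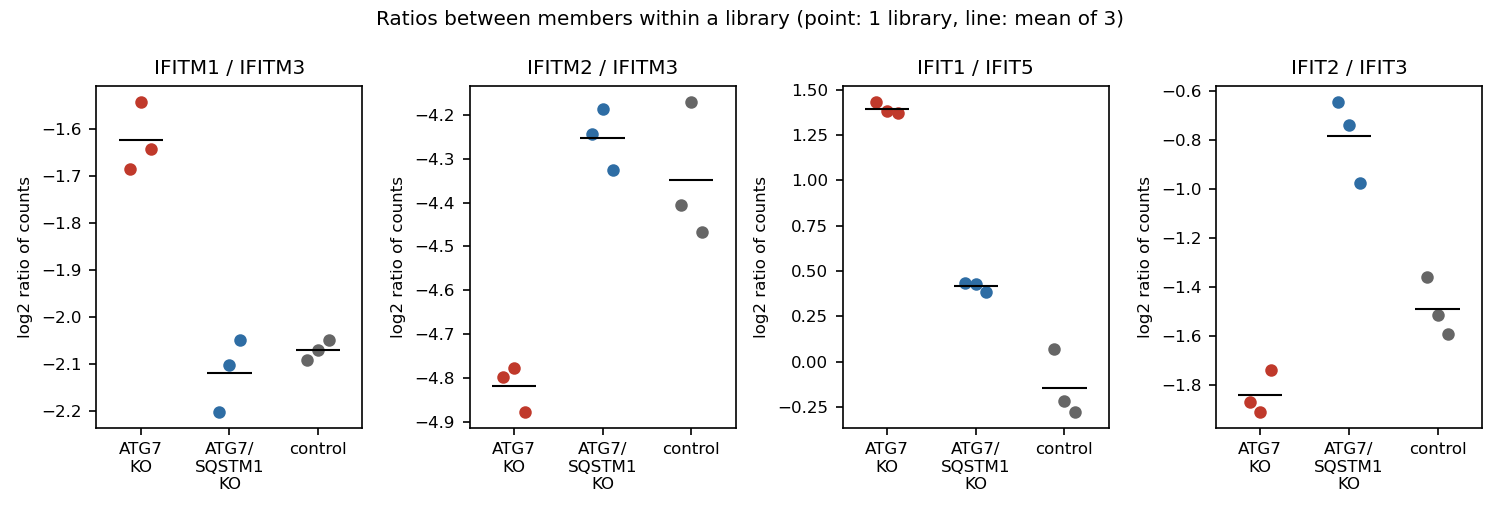
Log2 ratio of the counts of 2 members within a library, for 4 pairs, by genotype, with a point per library and a line at the mean of 3; each panel has its own axis. IFIT1 to IFIT5 is highest in ATG7 KO (mean 1.40) and lowest in control (mean -0.14), whereas IFIT2 to IFIT3 is highest in ATG7/SQSTM1 KO (mean -0.79); the IFITM ratios overlap between ATG7/SQSTM1 KO and control.

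As shares of the summed counts of each family, IFIT1 made up 31.6% of IFIT counts in ATG7 KO, 26.0% in ATG7/SQSTM1 KO and 21.6% in control. IFIT5 made up 12.0%, 19.5% and 23.7% in that order. IFITM3 made up 73.5 ± 0.932% of IFITM counts in ATG7 KO, 78.0 ± 0.696% in ATG7/SQSTM1 KO and 77.7 ± 0.359% in control (SD, n = 3 each). IFITM3 was the bulk of its family in each genotype, and IFIT3 was the largest share of the IFIT counts in each, at 44.1%, 34.5% and 40.3%.

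Per kilobase of annotated exon, the levels kept nearly the same order in the 3 genotypes. IFITM3 came first, with 319 CPM per kb in ATG7 KO, 101.7 in ATG7/SQSTM1 KO and 58.1 in control, and IFITM1 came next with 129, 29.3 and 17.2 CPM per kb. IFIT3 followed with 38.9, 7.75 and 6.26 CPM per kb. These 3 did not overlap with their neighbours in the order in any genotype.

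The lower end of the order was closer. IFIT1 had 16.0, 3.34 and 1.92 CPM per kb in ATG7 KO, ATG7/SQSTM1 KO and control, and IFITM2 had 9.87, 4.66 and 2.49. IFIT2 had 6.99, 2.88 and 1.43 CPM per kb and IFIT5 had 6.97, 2.87 and 2.42. IFITM2 thus lay below IFIT1 in ATG7 KO and above it in both other genotypes. IFIT2 and IFIT5 overlapped in ATG7 KO and in ATG7/SQSTM1 KO, and IFITM2 overlapped with IFIT5 in control. A second version took exonic bases shared with another gene on the same strand out of the length, a choice made after the overlap was seen. The counts were left whole, so these values are too high if reads of the shared bases were counted, which is not known. They were 191.6, 43.4 and 25.6 CPM per kb for IFITM1, 12.8, 6.03 and 3.22 for IFITM2, and 7.65, 3.16 and 1.57 for IFIT2. If such reads were not counted, IFIT2 lay above IFIT5 in both knockouts without overlap, but overlapped with IFIT1 in ATG7/SQSTM1 KO. On the same condition IFITM2 lay above IFIT5 in control without overlap.

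The other family genes in the table were scarce. IFIT1B had 2, 0 and 3 counts in the ATG7 KO libraries and 0 in all others, a level at which no fold is given. IFITM5, a bone gene, and the pseudogenes IFIT6P, IFITM8P and IFITM9P had no count. IFITM10 had 28, 46 and 69 counts in ATG7 KO, 12, 2 and 16 in ATG7/SQSTM1 KO and 27, 31 and 17 in control. Its libraries were scattered. In ATG7 KO against control its log2 value of 0.95 did not pass the test (edgeR adjusted p = 0.0705, and 0.0177 to 0.256 over the alternatives). It was called higher there by DESeq2, in a fit of only the 6 libraries compared, and without ATG7 KO replicate 1 or ATG7/SQSTM1 KO replicate 2. In ATG7/SQSTM1 KO against control it fell, unlike the members (log2 -1.35, adjusted p = 0.049), and it fell in ATG7/SQSTM1 KO against ATG7 KO (log2 -2.31, adjusted p = 0.00083). The call against control was lost with no low-count filter, with a replicate block, and without control replicate 1 or 2, ATG7 KO replicate 2 or ATG7/SQSTM1 KO replicate 1 or 2, and its log2 change ran from -1.88 to -0.92 with each library left out in turn. The pseudogene IFITM4P had 8, 6 and 6 counts in ATG7 KO, 19, 16 and 17 in ATG7/SQSTM1 KO and 17, 17 and 26 in control, and fell in ATG7 KO against control (log2 -1.53, adjusted p = 0.00181), opposite to the coding IFITM genes.

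In ATG7 KO against control the tested coding genes around the clusters had log2 values from -1.87 to 1.20, all below the lowest member (1.53). Within 100 kb of the IFIT genes lie 4 other protein-coding genes, of which 2 were tested. LIPA, the lysosomal acid lipase gene, lies on the minus strand and its annotated span contains IFIT2, IFIT3 and IFIT1, with 65 exonic bases opposite IFIT2. It rose in both knockouts against control, by a log2 change of 0.28 in ATG7 KO and 0.21 in ATG7/SQSTM1 KO. CH25H, cholesterol 25-hydroxylase, had 32, 23 and 14 counts in ATG7 KO and 12, 7 and 13 in control, a log2 change of 1.15 (edgeR adjusted p = 0.025). Within 100 kb of the IFITM genes, 7 of 10 other coding genes were tested, of which 4 rose and 2 fell in ATG7 KO against control. Over all tested genes 28.4% rose and 28.3% fell in that comparison. The proteasome subunit gene PSMD13 had a log2 change of 0.25 in ATG7 KO and -0.27 in ATG7/SQSTM1 KO, and RIC8A 0.30 and -0.16. ANO9, of the anoctamin family, fell in both, with log2 changes of -1.87 and -1.66.

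**Figure D4:**
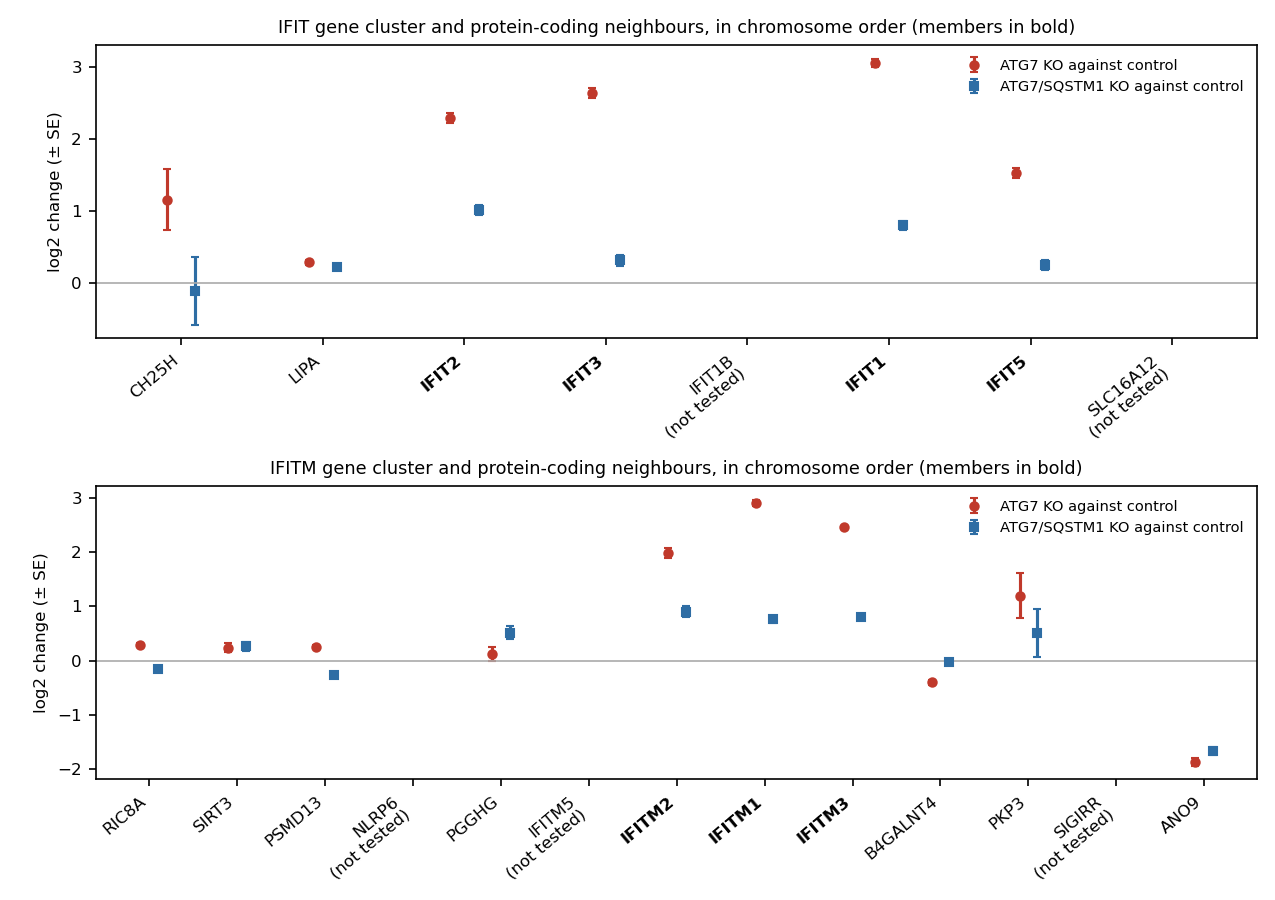
Fitted log2 change (vertical axis, bars for SE) of the protein-coding genes in and within 100 kb of the IFIT cluster (top) and the IFITM cluster (bottom), in chromosome order and not to scale along the chromosome, with circles for ATG7 KO and squares for ATG7/SQSTM1 KO, each against control. The 7 members, in bold, have circles from 1.53 to 3.06; the tested neighbours range from -1.87 (ANO9) to 1.20 (PKP3).

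Upstream of the families, the interferon ligands were near the limit of detection. None of 10 ligand genes passed the filter on low counts and 4 had no count in any library. Summed, they came to 0.716 to 1.14 CPM in ATG7 KO, 0.515 to 0.765 in ATG7/SQSTM1 KO and 0.122 to 0.207 in control. The type III ligand IFNL1 had 12, 8 and 10 counts in ATG7 KO, 11, 5 and 16 in ATG7/SQSTM1 KO and 0, 0 and 2 in control. IFNB1, the type I ligand of most cell types, had 3, 3 and 4 counts in ATG7 KO, 2, 2 and 3 in ATG7/SQSTM1 KO and 0, 2 and 0 in control. IFNE, an epithelial type I ligand chosen here after its counts were seen, had 5, 23 and 14 counts in ATG7 KO, 8, 6 and 5 in ATG7/SQSTM1 KO and 2, 0 and 3 in control. No test was made of these counts.

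Of 13 receptor and signalling genes, 8 rose and 2 fell in ATG7 KO against control, 2 rose and 2 fell in ATG7/SQSTM1 KO against control, and 2 rose and 11 fell in ATG7/SQSTM1 KO against ATG7 KO. Beside this list and those below, 28.4% of all tested genes rose and 28.3% fell in the first comparison. The shares were 19.0% and 19.6% in the second, and 30.5% and 29.9% in the third. The 2 rises and 2 falls in the second comparison are not above those shares. IRF9, the DNA-binding subunit of ISGF3, had log2 changes of 1.08 in ATG7 KO and 0.31 in ATG7/SQSTM1 KO, against control. The second passed the test (edgeR adjusted p = 0.0174), but not without control replicate 2, which left a log2 value of 0.19, or without ATG7/SQSTM1 KO replicate 2, which left 0.29. STAT2 rose by 0.56 in ATG7 KO, and its log2 value of 0.12 in ATG7/SQSTM1 KO did not pass the test (adjusted p = 0.108).

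Of 14 genes of nucleic acid sensing and of the IRF family 13 were tested, and 11 rose in ATG7 KO against control, 4 rose and 1 fell in ATG7/SQSTM1 KO against control, and 1 rose and 10 fell in ATG7/SQSTM1 KO against ATG7 KO. IRF1, a factor that interferon-gamma induces, had a log2 change of 1.06 in ATG7 KO and -0.20 in ATG7/SQSTM1 KO, against control. IRF7, which amplifies type I interferon production, was not tested, at 0.066, 0.158 and 0.096 CPM in ATG7 KO, ATG7/SQSTM1 KO and control. Among 7 negative feedback genes 6 were tested. In ATG7 KO against control 3 rose and none fell, in ATG7/SQSTM1 KO against control 1 rose and none fell, and in ATG7/SQSTM1 KO against ATG7 KO 1 rose and 4 fell. The genes that rose in ATG7 KO included USP18, which limits signalling at the type I receptor (log2 change 1.19). USP18 stood at a log2 value of 0.06 in ATG7/SQSTM1 KO against control (adjusted p = 0.616).

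All 21 of the other interferon-stimulated effectors rose in ATG7 KO against control (median log2 change 2.31) and all 21 fell in ATG7/SQSTM1 KO against ATG7 KO (median -2.20). Against control, 9 rose, 2 fell and 10 did not pass the test in ATG7/SQSTM1 KO, with a median of 0.12, where the 7 members had 0.80. MX1, a dynamin-like GTPase that traps viral nucleocapsids, had log2 changes of 3.60 and 0.40 in ATG7 KO and ATG7/SQSTM1 KO, against control. OAS1, which makes the activator of RNase L, had 3.03 and 0.34. RSAD2, which encodes viperin, had 7.77 ± 0.441 CPM in ATG7 KO, 4.98 ± 0.099 in ATG7/SQSTM1 KO and 1.57 ± 0.460 in control (SD, n = 3 each), and its log2 changes were 2.31 and 1.67. It kept more of its rise in the double knockout than any member did, a description that was not tested.

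Genes whose proteins bind or modify IFIT and IFITM proteins had smaller log2 changes than any member in ATG7 KO against control. Of the 6 listed, 5 rose and 1 fell in ATG7 KO against control, with a median log2 change of 0.23. ZMPSTE24, a membrane protease that works with IFITM proteins, had the largest change, with 0.65 in ATG7 KO. VAPA, a membrane contact protein that binds IFITM3, had 0.27, ZDHHC20, which palmitoylates IFITM3, had 0.27, and NEDD4, a ubiquitin ligase for IFITM3, had 0.20. Of the translation factor subunits that IFIT proteins bind, EIF3E fell by 0.25 and EIF3C rose by 0.18 on the log2 scale, the second being uncertain because a near-identical gene copy exists. In ATG7/SQSTM1 KO against control none of the 6 rose and 2 fell. NEDD4, with a log2 change of -0.39, kept its call in every alternative, and the other call was lost in some. In ATG7/SQSTM1 KO against ATG7 KO 1 rose and 5 fell, with a median log2 change of -0.29. ZMPSTE24 had the largest fall there (-0.72), and EIF3E was the gene that rose (0.23).

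The genes whose profile over the 9 libraries was closest to the mean IFIT profile were MAOA, CD36, COL1A1, ENPP2 and OASL, at Euclidean distances of 0.289 to 0.473 between centred log2 CPM profiles, among 11536 candidates. For the IFITM mean they were ENPP2, CD36, CCL5, COL1A1 and MAOA, at 0.236 to 0.383. The IFIT genes themselves lay 0.673 to 1.05 from their own family mean. Of the IFITM genes, IFITM3 lay at 0.1005 from its family mean, closer than any named gene, and IFITM1 and IFITM2 lay at 0.709 and 0.746. Each family mean includes the members themselves and none of the named genes. The distances of members and of named genes are therefore not on equal terms, and the closeness of IFITM3 is partly built in. CD36, a fatty acid and lipoprotein receptor, averaged 326.3 ± 2.55 CPM in ATG7 KO, 95.5 ± 4.86 in ATG7/SQSTM1 KO and 53.5 ± 0.512 in control (SD, n = 3 each). MAOA, monoamine oxidase A, averaged 87.5 ± 2.23, 24.3 ± 2.27 and 15.6 ± 0.250 CPM in the same order. Since 3 genotypes set most of each profile, many genes can lie close by this measure.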

How the data were processed

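Per the labels' protocols, 400 ng of total RNA was rRNA-depleted and made into dUTP strand-marked libraries with 12 PCR cycles. The submitters' processing notes name HISAT2 and the build hg38. No source used here names the counting program, its annotation or whether strand was used. The authors deposited raw counts, whole numbers for each gene and library. In the library columns 362598 cells are empty and none holds a 0, so empty cells were read as 0; 1 column-numbering row and 1 unlabelled column of 0 were left out.

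Counts were analysed in R 4.3.3 with edgeR 4.0.16: filterByExpr by group (18847 genes kept), TMM scaling, and a robust quasi-likelihood fit of all 9 libraries on genotype, with Benjamini-Hochberg adjusted p under 0.05 over all tested genes as the threshold. CPM are TMM-scaled. The fit was tested on simulated data in which far fewer genes changed than here and all genes had the same variability. That test does not cover data with this many changed genes. Ratios between members used count + 0.5 and exact permutation tests. Alternatives were other scalings and filters, DESeq2 1.42.0, only the libraries compared, a replicate block, and each library left out. Total counts limit precision, and counting error alone does not cover library preparation. The members, lists and rule for named genes (all members, listed pathway genes, cluster neighbours and the 5 closest profiles per family) were chosen with earlier results of these data known. Not every gene under that rule is reported here.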

Additional observations from a re-analysis of the deposited data

How the results depend on the processing

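All 336 alternative values for the 21 log2 changes of the members (16 settings each) kept their direction and their call. In ATG7 KO against control, IFIT1 ran from 2.99 to 3.16 and IFIT5 from 1.48 to 1.57. In ATG7/SQSTM1 KO against control, IFIT3 ran from 0.21 to 0.35 (largest adjusted p = 0.0182) and IFIT5 from 0.24 to 0.25 (0.0211). Another scaling moved the median of all genes by less than 0.1.

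Same-numbered libraries did not deviate together (correlations from -0.06 to 0.02), nor did differently numbered ones (-0.05 to 0.05). No pairing by replicate number was seen, but these values cannot show that none existed. With the number as a replicate block, 10564, 7137 and 11262 genes changed in the 3 comparisons, beside 10688, 7281 and 11395 without it.

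VAPA and EIF3E in ATG7/SQSTM1 KO against control, neither called, changed sign without control replicate 1. With each library left out in turn, VAPA ran from -0.0297 to 0.0144 and EIF3E from -0.0341 to 0.0036; the cause was not tested. DESeq2 called SQSTM1 in ATG7 KO against control (log2 0.07, adjusted p = 0.0368). The division of IFITM reads, the strand setting and the origin of the replicates are not known and limit these values, and depth limits the genes of few counts, such as the ligands and IFITM10.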
